A study of Mus musculus with 19 samples.

Results

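Gzma, Gzmb, Prf1, Nkg7, Ctsw, Klrd1, Cd3e, Cd2, Gimap5 and Il2rb are genes of cytotoxic lymphocytes, the natural killer (NK) cells and cytotoxic T cells that kill infected or altered cells. These 10 genes were picked by symbol because levels of several of them in macrophage libraries from the mouse cochlea differed strongly between young and old animals. Of the 10, 9 had a row among the 18639 genes of the table, and Il2rb was not analysed here. Because the difference between old and young macrophages was used to pick the genes, their values there are given as a description, with no test.

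Cytotoxic lymphocytes store perforin, encoded by Prf1, and granzymes such as those encoded by Gzma and Gzmb in granules. On contact with a target cell the granules are released, perforin opens the target's membrane, and granzymes enter and cleave proteins that trigger cell death. T cells recognise their targets through a receptor that needs the CD3 chains, one of them encoded by Cd3e, whereas NK cells use receptors such as the CD94 chain encoded by Klrd1. The chemokine receptor CX3CR1 marks macrophages and monocytes, and it is also carried by some NK cells and effector T cells.

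RNA was sequenced from cells of the cochlea, the part of the inner ear that senses sound. All mice were heterozygous for a knock-in of green fluorescent protein (GFP) at Cx3cr1 (CX3CR1 GFP/+), and they were either old (12 to 14 months) or young (1.5 months). Cells with GFP were sorted as macrophages and cells without it as nonmacrophages, so the sort marked cells by activity of the Cx3cr1 gene. Each isolate came from 1 mouse per the labels' protocols, but the labels do not say whether a macrophage and a nonmacrophage library came from the same mouse.

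Whole cochleae gave 4 old macrophage libraries (replicates 1, 7, 12 and 17), 2 young macrophage libraries (replicates 9 and 15), 4 old nonmacrophage libraries (replicates 10, 11, 18 and 19) and 4 young nonmacrophage libraries (replicates 2, 5, 6 and 14). Young auditory nerve and young lateral wall, which are substructures of the cochlea, each gave 1 macrophage library (replicates 3 and 4) and 1 nonmacrophage library (replicates 8 and 16). The remaining library was of unsorted cells of a young cochlea (replicate 13). Values are normalized reads, which are read counts divided by a factor for each library.

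The sorted old whole-cochlea libraries held 50.6 to 71.6 M (mega) reads and the sorted young ones 24.9 to 35.1 M, except young nonmacrophage replicate 14 with 60.2 M. The nerve, lateral wall and unsorted libraries held 20.6 to 26.4 M reads. Per the labels' protocols some samples, not named there, were sequenced again. Depth and age therefore nearly coincided and could not be told apart. Young macrophage replicates 9 and 15 had reads in 11652 and 13532 genes, against 16750 to 17282 genes in the old macrophage libraries. A gene with no reads may have had up to 3, which is 5.27 normalized reads in replicate 9, 3.39 in replicate 15 and 1.38 to 1.92 in the old macrophage libraries. A list of 17 macrophage genes summed to 324810 to 551492 normalized reads in old macrophages, to 1465180 and 1518910 in young macrophages, to 2627 to 8004 in the nonmacrophages of whole cochleae, and to 13299 and 39827 in the nonmacrophages of the nerve and the lateral wall.

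In the young macrophage sort, 6 of the 9 genes stood far above every old macrophage library. They were Gzma, Gzmb, Nkg7, Ctsw, Cd2 and Gimap5. Prf1 and Klrd1 had reads in only 1 of the 2 young macrophage libraries, and Cd3e had no reads in either. Since these are bulk samples, fewer cells of a type and less RNA per cell cannot be told apart.

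Gzma (mm10, chromosome 13, 113093825 to 113100981, minus strand) and Gzmb (chromosome 14, 56258838 to 56262260, minus strand) encode granzymes A and B, the proteases of the granule. The stretches of 250 bases that end just before their RefSeq start sites (GRCm38.p6) are shown because both genes were near 0 in the old libraries and high in the young macrophage libraries, and because regulators of cytotoxic genes bind short motifs. Capitals mark, on either strand, TCACAC (a core of the T-box motif, bound by factors such as EOMES and T-bet), TGTGGT (a RUNX core) and AGGAAG (an ETS core), which do not overlap here. The Gzma stretch (chr13:113100982-113101231, minus strand) held 1 RUNX match and the Gzmb stretch (chr14:56262335-56262584, minus strand) held 2 RUNX matches and 1 T-box match.
Gzma: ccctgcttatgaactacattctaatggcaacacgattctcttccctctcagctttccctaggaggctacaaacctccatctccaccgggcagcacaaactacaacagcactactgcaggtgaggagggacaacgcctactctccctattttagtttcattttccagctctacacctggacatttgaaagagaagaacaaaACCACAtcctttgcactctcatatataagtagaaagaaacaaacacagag
Gzmb: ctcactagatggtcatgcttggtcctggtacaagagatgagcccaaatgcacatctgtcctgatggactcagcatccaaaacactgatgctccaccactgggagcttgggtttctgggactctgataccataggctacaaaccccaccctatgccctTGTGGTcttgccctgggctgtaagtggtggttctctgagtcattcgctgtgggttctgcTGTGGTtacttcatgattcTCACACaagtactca
Of 32851 such stretches over the genome, 12.3% held the T-box letters, 14.0% the RUNX letters and 29.5% the ETS letters. Among the 6 of the 9 genes with a stretch in the RefSeq table, 2 held the T-box letters, 4 the RUNX letters and 4 the ETS letters. These matches describe the sequence and were not tested as binding sites.

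Gzma had 28.7 normalized reads in old macrophage replicate 17 and 0 in old replicates 1, 7 and 12, against 4269 in young macrophage replicate 9 and 418 in young replicate 15. Gzmb had 9.75 normalized reads in old macrophage replicate 17 and 0 in the other three, against 2061 and 274 in young replicates 9 and 15. Old replicate 17 was thus the only old macrophage library with reads of either granzyme, and for both genes the old and young libraries did not overlap. On the scale log2(normalized reads + 1), old macrophages minus young macrophages came to -9.16 for Gzma (SE 1.72) and -8.70 for Gzmb (SE 1.86). Leaving out young replicate 9 gave -7.49 and -7.25, and leaving out young replicate 15 gave -10.84 and -10.15.

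Prf1 (chromosome 10, 61297833 to 61304680, plus strand), the gene of the pore-forming granule protein perforin, was split within the young macrophages. It had 0.641 normalized reads in old macrophage replicate 1, which is a single read, and 0 in the other three, against 0 in young replicate 9 and 288 in young replicate 15. The library with the highest Gzma and Gzmb therefore had no Prf1 reads. The log2 difference between old and young macrophages was -3.91 in all libraries, 0.18 without young replicate 15 and -8.00 without young replicate 9, so its sign rested on 1 library.

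Nkg7 (chromosome 7, 43437073 to 43438249, plus strand) encodes a membrane protein of cytotoxic granules. Its values were 20.5, 3.26, 7.83 and 52.4 normalized reads in old macrophage replicates 1, 7, 12 and 17, against 2645 and 824 in young macrophage replicates 9 and 15. Ctsw (chromosome 19, 5465043 to 5468507, minus strand) encodes cathepsin W, a protease made by NK cells and cytotoxic T cells. It had 2.57, 16.9, 11.1 and 14.0 normalized reads in old macrophage replicates 1, 7, 12 and 17, against 670.5 and 614 in young replicates 9 and 15. Both genes were detected in every macrophage library of the whole cochlea, and every old value was below both young values. The log2 differences between old and young macrophages were -6.68 for Nkg7 (SE 1.22) and -5.95 for Ctsw.

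Among the receptors, Cd2 (chromosome 3, 101275899 to 101287939, minus strand), whose product adheres to CD48 on other cells in the mouse, followed the pattern of Nkg7 and Ctsw. Cd2 had 14.1, 14.7, 22.1 and 39.6 normalized reads in old macrophage replicates 1, 7, 12 and 17, against 941 and 555 in young replicates 9 and 15, a log2 difference of -5.06. Klrd1 (chromosome 6, 129591782 to 129598775, plus strand), whose CD94 product pairs with NKG2 receptors, did not. It had 11.5, 5.99, 57.1 and 6.71 normalized reads in old macrophage replicates 1, 7, 12 and 17, against 0 in young replicate 9 and 307 in young replicate 15. All 4 old libraries lay between the young ones, and the log2 difference of -0.32 became 3.82 without young replicate 15 and -4.45 without young replicate 9.

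Cd3e (chromosome 9, 44998740 to 45009627, minus strand) ran the other way. It had 8.34, 19.0, 17.5 and 4.27 normalized reads in old macrophage replicates 1, 7, 12 and 17, against 0 in both young replicates. On group means it was at least 2.84-fold higher in old macrophages, taking 3 reads per library as the floor of the young ones. The lowest old value, in replicate 17, was below the floor of young replicate 9. The gene that defines T cells among the 9 was thus not detected in either young library in which Gzma and Gzmb were high.

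Gimap5 (chromosome 6, 48746197 to 48754210, plus strand) encodes a GTPase of lysosome membranes that lymphocytes need to survive in the mouse. Its upstream stretch (RefSeq, GRCm38.p6, chr6:48745947-48746196, plus strand) is shown because Gimap5 alone among the 9 genes had at least 99.3 normalized reads in every whole-cochlea nonmacrophage library. It held 1 ETS match, in capitals, and no T-box or RUNX match.
Gimap5: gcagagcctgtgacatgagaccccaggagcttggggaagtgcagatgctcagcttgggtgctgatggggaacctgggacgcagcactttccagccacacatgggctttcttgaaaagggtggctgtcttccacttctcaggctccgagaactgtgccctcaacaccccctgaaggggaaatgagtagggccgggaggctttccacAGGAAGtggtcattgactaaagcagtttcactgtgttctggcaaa
Gimap5 had 35.3, 30.5, 11.5 and 4.88 normalized reads in old macrophage replicates 1, 7, 12 and 17, against 1034 and 700 in young macrophage replicates 9 and 15. The groups did not overlap, and the log2 difference was -5.64.

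**Figure D1:**
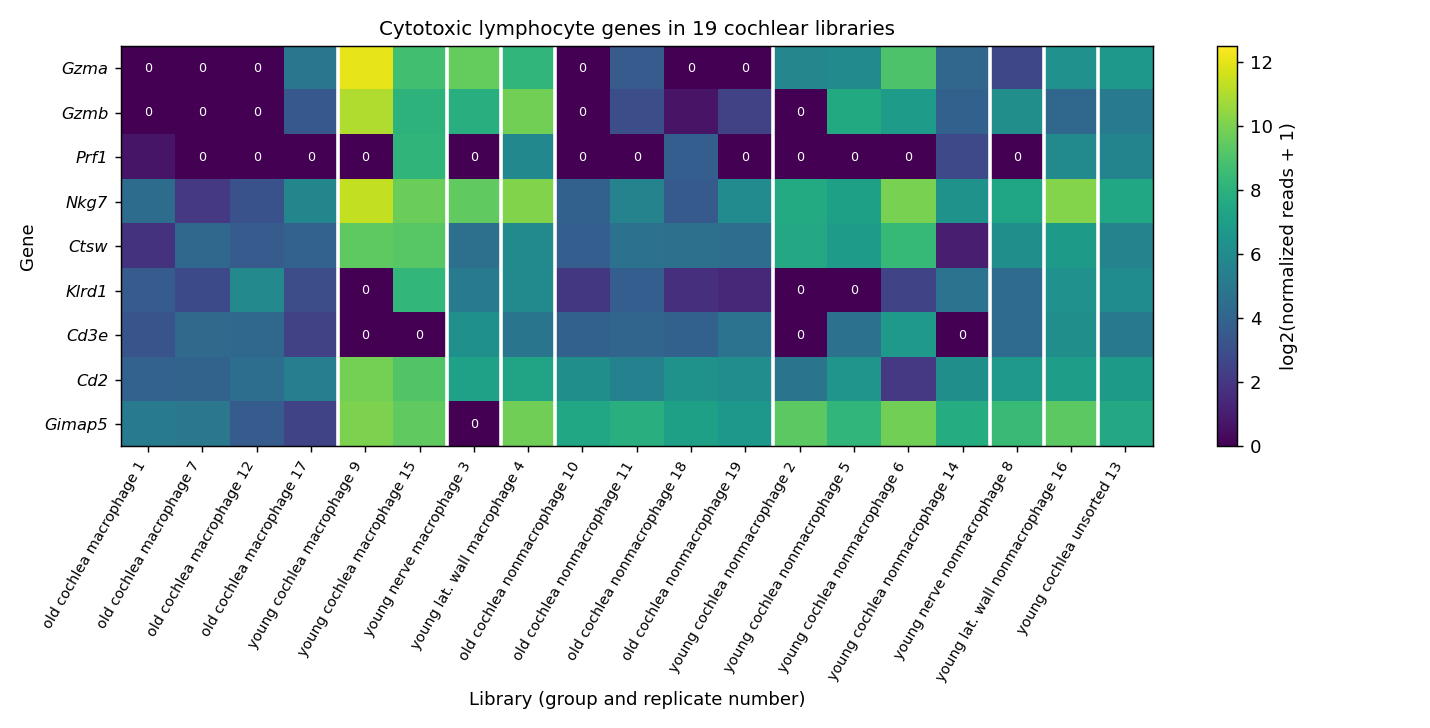
Colour gives log2(normalized reads + 1) of the 9 genes (rows) in each of the 19 libraries (columns), with white lines between groups and 0 printed where a gene had no reads. Gzma and Gzmb were brightest in young cochlear macrophage replicate 9, Cd3e had 0 in both of those from whole cochlea, and Prf1 had reads in 7 libraries.

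Over the 9 genes, the old macrophage libraries were all below the young ones for 6 and all above for 1, and they overlapped for 2. Over the 18441 genes tested, the old libraries were all below for 13.4% and all above for 31.7%. These genes were picked on this comparison, so the shares are background to the counts and nothing is read from them. Summed over the 9 genes, old macrophages held 90.3 to 160 normalized reads, against 11620 in young replicate 9 and 3981 in young replicate 15. Summed values of some other cell-type lists moved with the same split. The sums of the B cell, other innate lymphoid, monocyte, dendritic cell, neutrophil, and mast cell and basophil lists overlapped between old and young macrophages. A list of 12 endothelial genes summed to 7478 to 9873 in old macrophages and to 35439 and 43815 in young ones, and a list of 6 erythroid genes to 1720 to 6579 in old macrophages and to 19487 and 25580 in young ones. Their part in the result was not tested.

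**Figure D2:**
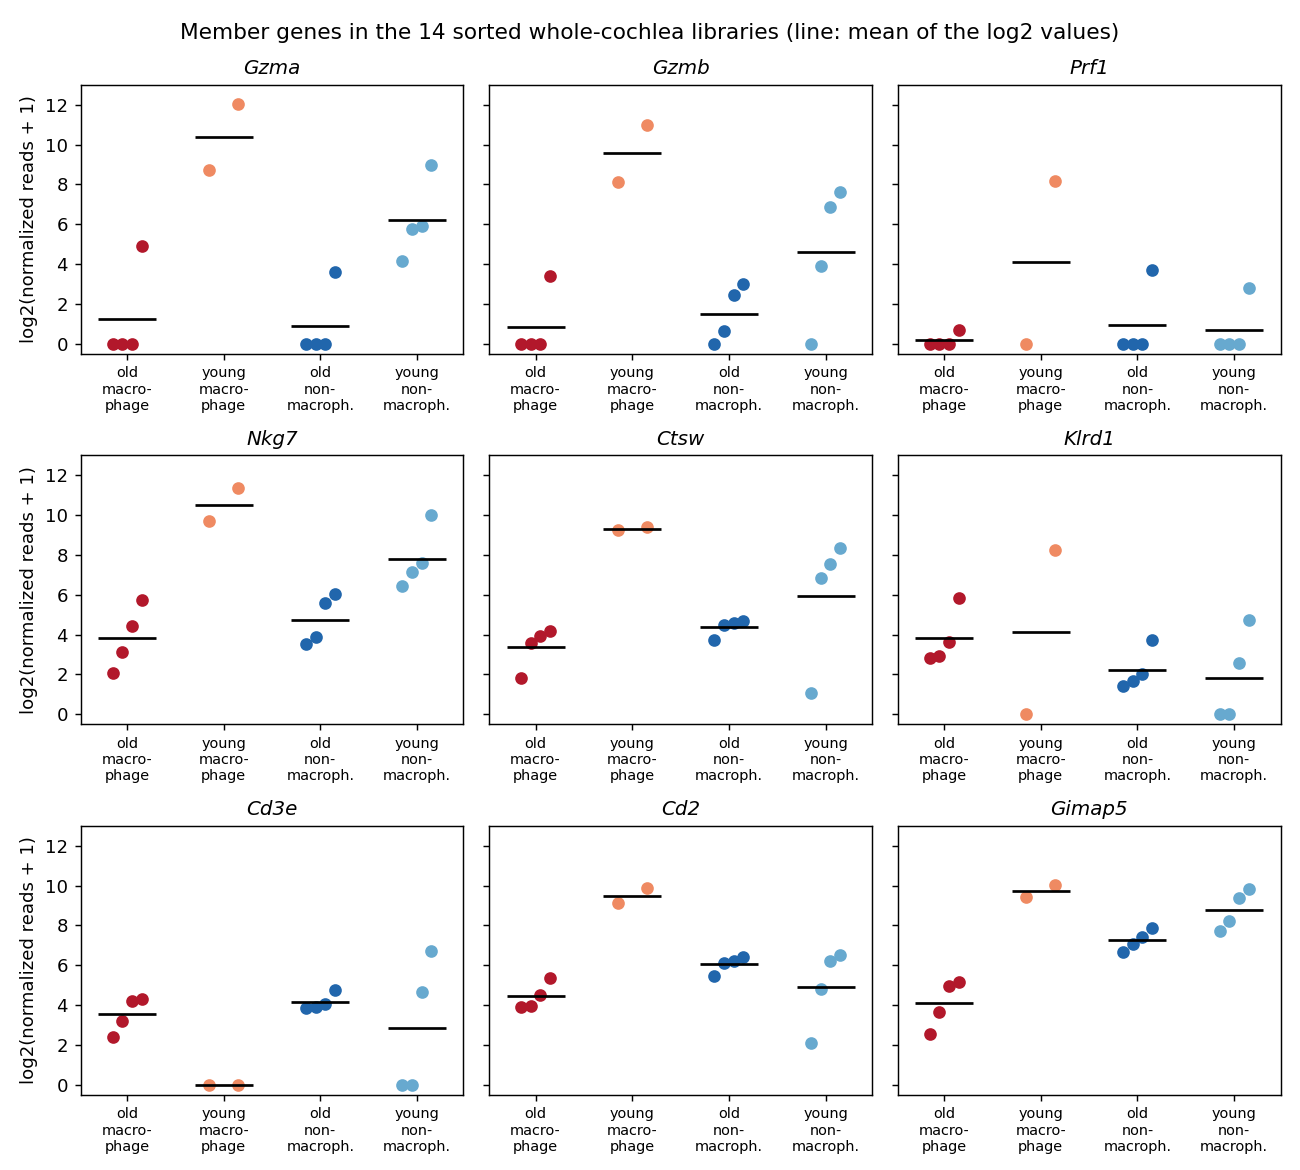
Each panel shows 1 gene, with log2(normalized reads + 1) on the vertical axis and the 14 sorted whole-cochlea libraries as points in 4 groups (old and young macrophages, old and young nonmacrophages). Bars mark the mean of the log2 values. The young macrophage points stand apart for Gzma, Gzmb, Nkg7, Ctsw, Cd2 and Gimap5 relative to old macrophages, whereas for Prf1 and Klrd1 the 2 young points are at 0 and near 8.

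The young macrophage libraries differed from each other in which genes they held. Gzma was 10.2-fold higher in replicate 9 than in replicate 15 (95% exact binomial interval 9.16 to 11.4) and Gzmb 7.51-fold higher (6.54 to 8.66). Nkg7 was 3.21-fold (2.94 to 3.51), Cd2 1.69-fold (1.50 to 1.92) and Gimap5 1.48-fold higher (1.32 to 1.66), while for Ctsw the ratio was 1.09 (0.955 to 1.25). In the other direction, replicate 9 had no reads of Prf1 or Klrd1. Taking 3 reads as its floor, Prf1 was at least 54.7-fold and Klrd1 at least 58.3-fold higher in replicate 15. The exact binomial intervals put the lower limits at 44.1-fold and 47.1-fold. These intervals and the floors cover counting error only, and with 1 library on each side they compare libraries and not conditions.

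**Figure D3:**
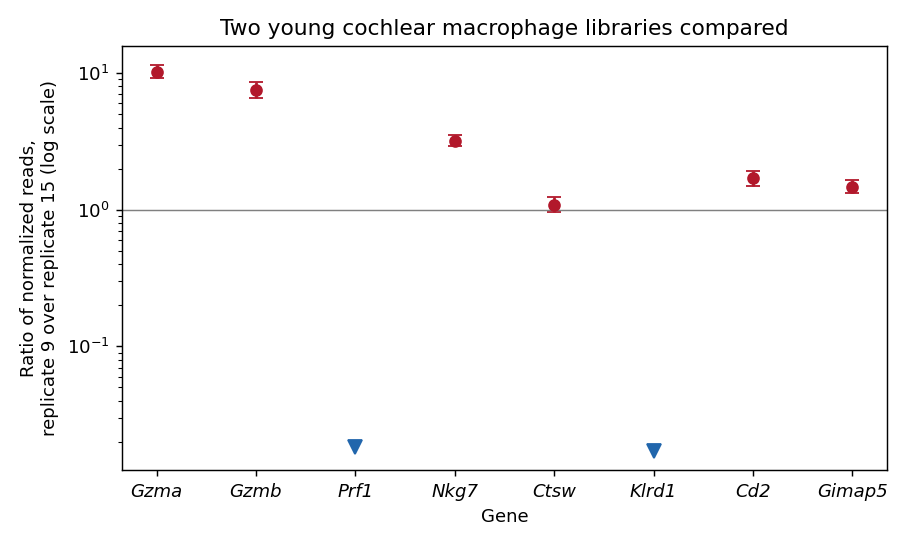
The vertical axis (log scale) gives the ratio of normalized reads in young macrophage replicate 9 over replicate 15 for 8 genes, with exact binomial intervals of 95%. Triangles mark Prf1 and Klrd1, which had no reads in replicate 9, at the ratio that 3 reads there would give. Gzma and Gzmb were 10.2 and 7.51 times as high in replicate 9, and Ctsw lay at 1.09.

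Scaled to gene length, the order of levels also differed. In replicate 9 Gzma led with 4243 normalized reads per kb of exon, followed by Nkg7 (2894), Gzmb (1435), Cd2 (540), Ctsw (355) and Gimap5 (249). In replicate 15 Nkg7 led with 902 normalized reads per kb, followed by Gzma (415), Ctsw (326), Cd2 (319), Klrd1 (240), Gzmb (191), Gimap5 (169) and Prf1 (111). The 95% intervals of the counts, scaled in the same way, overlapped in replicate 15 for Ctsw and Cd2, for Klrd1 and Gzmb, and for Gzmb and Gimap5. The order within these pairs was not tested further.

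Other T cell and NK cell genes were set beside the 9. The list of T cell receptor and signalling genes had 17 of 21 genes measured, and the list of NK cell receptors and regulators all 21. In young macrophage replicate 9 some T cell genes were high, with Cd3g at 993 and Cd8b1 at 593 normalized reads, against 74.5 and 3.38 in replicate 15. The T cell list summed to 1513 to 2340 normalized reads in old macrophages, with 12 to 15 of 17 genes above 3 reads. It summed to 6875 in young replicate 9 with 7 of 17 and to 2533 in young replicate 15 with 9 of 17. Cd4 and Thy1, which other cells also use, are part of these sums. They averaged 882 and 726 in old macrophages and 1112 and 914 in young ones, so the sums do not measure T cells alone. Other T cell genes had no reads in replicate 9, with Cd3d at 0 and 1.13, Lck at 0 and 400 and Lat at 0 and 82.4 in replicates 9 and 15, and Cd247 at 0 in both. CD3G, CD3D, CD3E and CD247 are chains of one receptor complex, and only Cd3g was above 2 normalized reads in either young library.

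The NK cell list differed more between the young macrophage libraries. In replicate 9 none of the 21 genes exceeded 3 reads and the list summed to 5.27 normalized reads, whereas 12 of 21 did in replicate 15, with a sum of 2302. The old macrophage libraries lay between, with 8 or 9 of 21 genes above 3 reads and sums of 373 to 899. Ncr1, which encodes the NK receptor NKp46, stood at 0 in replicate 9 and 400 in replicate 15, and Klrk1, which encodes NKG2D, at 0 and 744. Klrc1, the NKG2A partner of CD94, stood at 0 and 166. Both young libraries thus held granzyme reads and reads of some T cell genes, and perforin and NK receptor reads were detected in replicate 15.

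**Figure D4:**
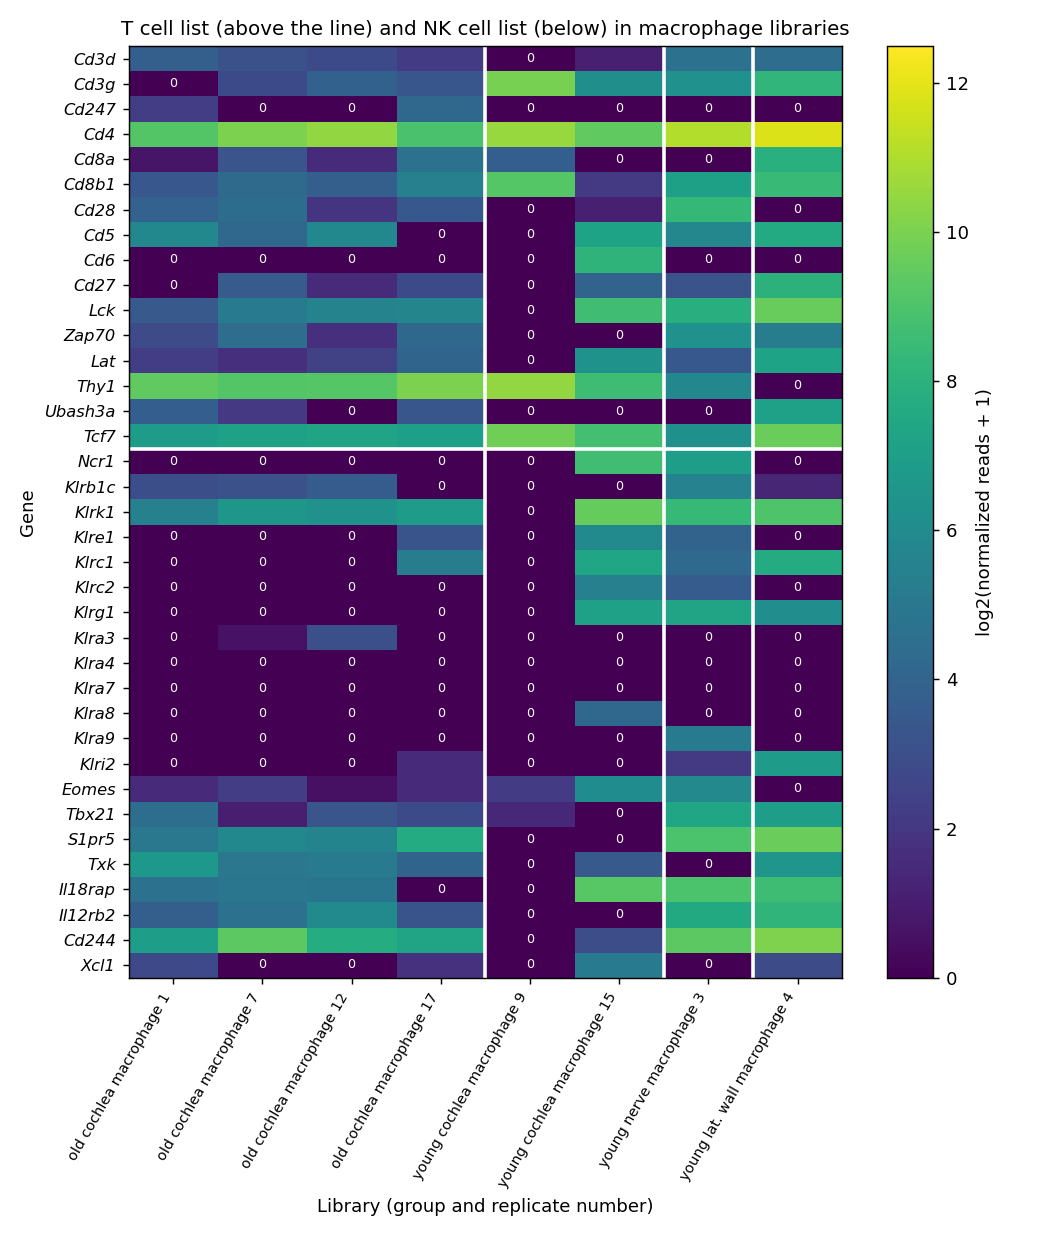
Colour gives log2(normalized reads + 1) of 16 of the 17 measured T cell genes (above the white line) and 21 NK cell genes (below it) in the 8 macrophage libraries, with 0 printed where there were no reads. In young cochlear macrophage replicate 9 the NK cell rows hold almost no reads, while 12 of the 21 genes exceeded 3 reads in replicate 15.

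Between old and young macrophages, 29.7% of the 18441 genes tested had a limma adjusted p under 0.05, 24.1% higher and 5.57% lower in old. Of the same genes, 7991 had an unadjusted limma p under 0.05. The log2 difference had its median over all genes at 0.88. After quantile normalization that median was -0.07, and of the genes called 50.2% were higher, against 81.2% in the main fit. The T cell, NK cell and granule lists together had 50 genes tested, the 9 left out. Of these, 7 were higher and 4 lower in old macrophages, and 39 did not pass. The split depended on the scaling and the tool, since edgeR on the recovered reads gave 3 higher and 9 lower. Quantile normalization gave 0 higher and 5 lower in the T cell list, 1 and 5 in the NK list and 1 and 2 in the granule list. Over all genes edgeR called 2702 higher and 1065 lower, and quantile normalization 2292 and 2277, against 4441 and 1027 in the main fit. In the main fit the median log2 difference of the 50 list genes was 0.26, or 0.20 with genes at 0 in 1 group set at their bound. The counts within the lists moved with the young library used: leaving out young replicate 9 gave 1 NK gene higher and 4 lower, against 3 higher and 0 lower with all libraries, and leaving out old replicate 1 or old replicate 7 left 6 or 7 genes called over the 3 lists, against 11 with all libraries.

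In the T cell list 1 gene was higher and 2 were lower in old macrophages. Tcf7, a transcription factor gene of T and NK cells, averaged 138 normalized reads in old and 651 in young macrophages (log2 difference -2.14, SE 0.48, limma adjusted p = 0.00506). Cd3g averaged 7.24 in old and 534 in young macrophages (-5.59, SE 1.80, limma adjusted p = 0.034), and the call was lost without young replicate 9 (adjusted p 0.256) or without old replicate 1, 7 or 17 (0.0508 to 0.0793). Cd28, a co-stimulatory receptor gene, was higher in old macrophages at 2.88 (limma adjusted p = 0.0182), but its mean was only 11.8 normalized reads, the call was lost without young replicate 9 (adjusted p 0.139), and its sign turned to -1.33 after quantile normalization.

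In the NK list 3 genes were higher in old macrophages and 0 lower with limma, with 3 lower at an unadjusted p under 0.05, while edgeR gave 1 higher and 3 lower. S1pr5, a sphingosine-1-phosphate receptor gene, had 31.4, 55.5, 48.8 and 207 normalized reads in old macrophage replicates 1, 7, 12 and 17, against 0 in both young ones (limma adjusted p = 8.84e-05), which is at least 19.8-fold higher. S1pr5 was also read in GFP-negative cells, with a mean of 1012 in old nonmacrophages. Cd244, a receptor gene of NK cells that myeloid cells also use, averaged 285 in old and 3.39 in young macrophages (limma adjusted p = 0.00861, and 0.0831 without young replicate 9), and the call was also lost with edgeR (adjusted p 0.0809) and after quantile normalization (0.0754). In macrophages of the young nerve and lateral wall both genes were high, with S1pr5 at 501 and 792 and Cd244 at 641 and 1101. Txk, a kinase gene of T and NK cells, passed at 3.46 (limma adjusted p = 0.0409) but under only 9 of 20 other settings, and came to -0.04 after quantile normalization.

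In the granule and effector list 3 of 16 genes were higher and 2 lower in old macrophages. Ccl5, a chemokine gene of activated T and NK cells, had 139, 174, 34.1 and 230 normalized reads in old macrophage replicates 1, 7, 12 and 17, against 6449 and 783 in young replicates 9 and 15. Its log2 difference was -4.24 (SE 1.08, limma adjusted p = 0.0112), and the adjusted p was 0.119 without young replicate 9. Ctsc, whose protease activates granzymes and is also abundant in macrophages, averaged 29244 in old and 86658 in young macrophages (-1.37, SE 0.42, limma adjusted p = 0.0259). Its adjusted p was 0.28 without young replicate 15, and 0.06 and 0.0535 without old replicates 1 and 17. The call was also lost in a fit of both groups alone (adjusted p 0.0833) and after quantile normalization, where the log2 difference was -0.64 (adjusted p 0.253). Stx11, Gzmm and Lyst were higher in old macrophages (limma adjusted p = 0.0127, 0.0385 and 0.0363), and they passed under 20, 9 and 10 of 20 other settings. Stx11, needed for granule fusion, was at 0 in both young whole-cochlea libraries and at 623 and 871 normalized reads in macrophages of the nerve and the lateral wall. Gzmm, a granzyme gene, averaged 23.5 in old macrophages and was at 0 in both young libraries. Lyst, which shapes lysosome-related organelles, averaged 183 in old and 63.2 in young macrophages. Its log2 difference of 4.02 ranged from 0.52 to 7.52 with 1 library left out.

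The other GTPase genes of the GIMAP family followed Gimap5 in part. Of 7 tested, 3 were lower in old macrophages, 0 higher and 4 did not pass, and the same counts of lower and higher came from edgeR. Gimap9 averaged 49.9 normalized reads in old and 833 in young macrophages (log2 difference -3.76, SE 0.72, limma adjusted p = 0.00189). Gimap6 averaged 435 in old and 2393 in young macrophages (-2.18, SE 0.44, limma adjusted p = 0.00277), and Gimap4 98.4 in old and 592 in young (-2.59, SE 0.68, limma adjusted p = 0.0127). Gimap9 and Gimap6 passed under all 20 other settings and Gimap4 under 19. GIMAP genes are also active in endothelial cells, whose list sums stood beside them above, and their part here was not tested.

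Ligands and inhibitors of the proteins were measured too. Of 8 genes, 2 were lower and 0 higher in old macrophages, also with edgeR. H2-T23, which encodes Qa-1, the ligand of the CD94 receptors in the mouse, averaged 4014 normalized reads in old and 12157 in young macrophages (log2 difference -1.60, SE 0.34, limma adjusted p = 0.00417). Serpinb9, whose product inhibits granzyme B, averaged 506 in old and 1765 in young macrophages (-1.67, limma adjusted p = 0.0412), and it passed under 11 of 20 other settings, with an adjusted p of 0.256 without young replicate 15. Of the 8 genes measured for signalling through IL-2 and IL-15, 0 passed in either direction with all libraries (0 with edgeR and 2 at an unadjusted p under 0.05), and 5 were higher in old macrophages without young replicate 15. Il2rg and Jak3 differed between the young libraries, with Il2rg at 1.76 and 5294 and Jak3 at 0 and 1651 normalized reads in replicates 9 and 15.

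Markers of other cells that a GFP sort of the cochlea could hold were counted in the same comparison of old and young macrophages. Endothelial genes were lower in old macrophages for 6 of 12 (0 higher) and macrophage genes for 3 of 17 (0 higher). The monocyte list had 1 of 9 higher and 1 lower, the dendritic cell list 3 of 9 higher and 0 lower, the other innate lymphoid list 2 of 8 higher and 0 lower, and the erythroid list 0 higher and 1 of 6 lower. With edgeR the calls higher and lower were 0 and 1 for monocyte, 0 and 0 for dendritic cell, 2 and 1 for other innate lymphoid and 0 and 2 for erythroid genes, while the endothelial and macrophage counts did not change. B cell, neutrophil, and mast cell and basophil genes gave 0 calls of 10, 11 and 5 (edgeR gave 0, 0 and 1, and 0, 0 and 1 had an unadjusted p under 0.05). Ms4a1, a defining B cell gene, was at 0 in both young macrophage libraries, and Cd79a also had a mean of 0 there. Cd79b, another B cell gene, went the other way. It averaged 57.0 in old and 1158 in young macrophages and was not called (limma adjusted p = 0.131). Mcpt8, a basophil protease gene, had 4374 normalized reads in young replicate 15 and 0 in young replicate 9 and in the 4 old libraries. The part of these cells in the values of the 9 genes was not tested.

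Comparing sorts within an age asked whether these transcripts were held by GFP-positive or GFP-negative cells. Among young cochleae, Gzmb, Ctsw and Cd2 were higher in both macrophage libraries than in all 4 nonmacrophage libraries, and the other 6 genes overlapped. Over all genes, 10.5% were all higher and 18.6% all lower in young macrophages. These values share the young macrophage libraries that the genes were picked on and carry no test. Gzma had 53.3, 59.9, 511 and 16.6 normalized reads in young nonmacrophage replicates 2, 5, 6 and 14, so replicate 6 exceeded young macrophage replicate 15. Nkg7 had 196, 139, 1026 and 85.6 in the same 4 libraries, and replicate 6 again exceeded young macrophage replicate 15. Gimap5 averaged 867 in young macrophages and 518 in young nonmacrophages, where it stood at 660, 296, 904 and 212, and its log2 difference was 0.95 with overlapping groups. The log2 differences were 4.18 for Gzma, 4.97 for Gzmb, 2.73 for Nkg7, 3.37 for Ctsw and 4.60 for Cd2.

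Among old cochleae, Cd2 and Gimap5 were lower in all 4 old macrophage libraries than in all 4 old nonmacrophage libraries, and the other 7 genes overlapped. Over all genes, 23.3% were all higher and 30.0% all lower in old macrophages. Cd2 averaged 22.6 ± 11.9 (SD, n = 4) normalized reads in old macrophages, against 67.4 ± 17.6 (SD, n = 4) in old nonmacrophages. Gimap5 averaged 20.5 ± 14.6 (SD, n = 4) in old macrophages, against 159 ± 56.1 (SD, n = 4) in old nonmacrophages, a log2 difference of -3.17. Granzyme reads were near 0 in both old sorts. Gzma averaged 7.16 ± 14.3 in old macrophages, against 2.75 ± 5.51 in old nonmacrophages, and Gzmb 2.44 ± 4.88 in old macrophages, against 2.96 ± 3.26 in old nonmacrophages (SD, n = 4 in every group).

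The nonmacrophage libraries of the 2 ages were not used to pick the genes, and here the 9 were tested. With limma, 1.72% of 18441 genes passed between old and young nonmacrophages (1.64% higher and 0.0813% lower in old), and 0 of the 9 genes did. edgeR also called 0 of the 9, and 3 genes over the whole table. At an unadjusted p under 0.05 limma counted 3 of the 9 and edgeR 5. Gzma, Nkg7 and Gimap5 were the 3 with limma. Over all 18441 genes limma counted 4262 at that threshold, and the edgeR number was not counted.

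Gzma had 11.0 normalized reads in old nonmacrophage replicate 11 and 0 in old replicates 10, 18 and 19, below all 4 young values given above. Its log2 difference was -5.31 (SE 1.40, limma adjusted p = 0.0751, with adjusted p of 0.0171 to 0.192 over 20 other settings). Nkg7 had 13.5, 47.5, 10.6 and 64.2 normalized reads in old nonmacrophage replicates 10, 11, 18 and 19, again all below the young values. Its log2 difference was -3.04 (SE 1.00, limma adjusted p = 0.113, with 0.0388 to 0.263 over the other settings). Gzma and Nkg7 were the 2 genes of the 9 whose old libraries were all lower, and 0 were all higher, where 5.39% of all genes were all lower and 12.0% all higher.

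Gimap5 had 172, 231, 135 and 99.3 normalized reads in old nonmacrophage replicates 10, 11, 18 and 19, and only old replicate 11 overlapped the young range. Its log2 difference was -1.53 (SE 0.70, limma adjusted p = 0.209). Gzmb had 0, 6.88, 0.556 and 4.39 in the old replicates, against 0, 195, 114 and 13.9 in young nonmacrophage replicates 2, 5, 6 and 14 (-3.08, SE 1.52, limma adjusted p = 0.243). Ctsw had 12.3 to 24.8 in old nonmacrophages, against 187, 116, 326 and 1.07 in young replicates 2, 5, 6 and 14. Young replicate 14 was the lowest of the 8 libraries for Ctsw, and the log2 difference was -1.58 (SE 1.28, limma adjusted p = 0.48).

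Cd2, Cd3e, Klrd1 and Prf1 had positive log2 differences of 1.15, 1.30, 0.39 and 0.24 that did not pass (limma adjusted p = 0.446, 0.566, 0.909 and 0.941). Cd2 averaged 67.4 ± 17.6 normalized reads in old and 48.5 ± 40.6 in young nonmacrophages (SD, n = 4 each). Cd3e had 13.5 to 25.8 in the 4 old nonmacrophage libraries, against 0 in young replicates 2 and 14 and 24.5 and 104 in young replicates 5 and 6. On plain means Cd3e and Klrd1 had the opposite order, with Cd3e at 17.3 in old and 32.2 in young nonmacrophages and Klrd1 at 4.83 in old and 7.64 in young nonmacrophages. After quantile normalization Cd3e, Klrd1 and Prf1 turned to -0.21, -1.17 and -0.61, and with edgeR Cd3e and Klrd1 turned to -0.91 and -0.77.

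Young nonmacrophage replicate 14 was the 1 young library sequenced as deeply as the old ones. Without it, Gzma came to -6.00 (limma adjusted p = 0.0171), Nkg7 to -3.50 (limma adjusted p = 0.0388) and Ctsw to -3.21 (limma adjusted p = 0.00846), and all 3 passed. In that setting 3562 genes passed over the whole table, against 318 with all libraries, so passing there is not particular to these 3. Gzma also passed without young macrophage replicate 9 (limma adjusted p = 0.0442) or 15 (0.0447), which enter the shared estimate of spread. The other 3 young nonmacrophage libraries held 24.9 to 25.4 M reads and the old ones 51.2 to 64.4 M, so without replicate 14 depth and age cannot be told apart. Within the deep libraries there was only replicate 14 on the young side, and no test within a depth class was possible. In replicate 14 itself Gzma had 16.6, Nkg7 85.6 and Gimap5 212 normalized reads. The first 2 lay above all 4 old libraries and Gimap5 within their range. Erythroid sums in young replicates 2, 5 and 6 lay above all 4 old libraries, but that of replicate 14 lay below all 4, unlike Gzma and Nkg7. The neutrophil sums of the 2 ages overlapped. Neutrophil sums were 1926 to 11976 normalized reads in old nonmacrophages, against 29185, 23.2, 44012 and 19550 in young replicates 2, 5, 6 and 14. The erythroid list summed to 14164 to 28037 normalized reads in old nonmacrophages, against 1785500, 422817 and 493972 in young replicates 2, 5 and 6 and 13616 in young replicate 14. Its median log2 difference was -3.79, with 0 of 6 genes called by limma, 0 by edgeR and 5 lower at an unadjusted p under 0.05. The endothelial list summed to 45000 to 64881 in old nonmacrophages, against 77814 to 117362 in young ones. The part of these cells in the values of the 9 genes was not tested.

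**Figure D5:**
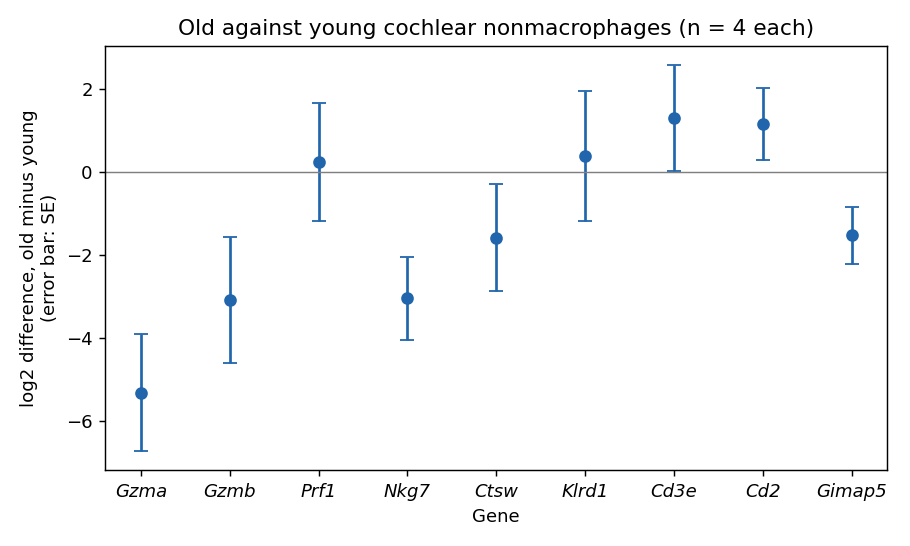
Points give the log2 difference of normalized reads, old minus young nonmacrophages (4 libraries each), for the 9 genes, with the limma standard error as bars. Gzma, Gzmb, Nkg7, Ctsw and Gimap5 lie below 0 and the other 4 above, and none passed the adjusted threshold.

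The T cell, NK cell and granule lists were also counted in the other comparisons, again without the 9. Between old and young nonmacrophages 0 of the 50 genes tested passed with limma and 0 with edgeR. At an unadjusted p under 0.05 limma counted 5 of the 50, and 4262 of 18441 over all genes. The median log2 difference of the 50 was 0.46, against 0.39 over all genes. Without young nonmacrophage replicate 14, 7 of the 50 passed with limma, where 3562 genes passed over the whole table, against 318 with all libraries. Between young macrophages and young nonmacrophages 31.5% of all genes passed, 9.18% higher and 22.3% lower in macrophages. Of the 50 genes 6 were higher and 3 lower (8 and 4 with edgeR, which called 1776 higher and 3166 lower over all genes). Cd4 and Thy1, T cell genes that other cells also use, were higher in young macrophages, with means of 1112 and 914 normalized reads, against 0.474 and 99.7 in young nonmacrophages. Ccl5, Cst7, Ctsc and Eomes were the others higher, and S1pr5, Gzmm and Lyst were lower. Eomes averaged 35.1 normalized reads in young macrophages but had no more than 3 reads in replicate 9, so its level came mostly from replicate 15. Between old macrophages and old nonmacrophages 18.6% of all genes passed, 9.25% higher and 9.36% lower in macrophages. Of the 50 genes 6 were higher and 2 lower (4 and 2 with edgeR, which called 1623 higher and 1333 lower over all genes). Cd4, Thy1, Cd28, Cd244, Cst7 and Ctsc were higher in old macrophages, and Tcf7 and S1pr5 were lower. In the GIMAP family Gimap4, Gimap6 and Gimap9 were lower in old macrophages than in old nonmacrophages, which was also the order for Gimap5, and edgeR called 1 GIMAP gene lower there.

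The auditory nerve and lateral wall gave 1 library of each sort from young mice, so their ratios carry counting intervals only. Gzma had 757 normalized reads in nerve macrophages and 5.59 in nerve nonmacrophages, a ratio of 135 (95% exact binomial interval 52.5 to 499). In the lateral wall it had 303 in macrophages and 79.5 in nonmacrophages, a ratio of 3.81 (2.80 to 5.28). For Gzmb the larger ratio was in the lateral wall, with 236 in nerve macrophages and 71.3 in nerve nonmacrophages (3.31, 2.39 to 4.65), and 908 in lateral wall macrophages and 16.8 in lateral wall nonmacrophages (54.0, 30.0 to 109). Both granzymes were thus higher in the GFP-positive library of both substructures.

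Nkg7 was 4.21-fold higher in nerve macrophages than in nerve nonmacrophages (3.42 to 5.21), with 689 and 164 normalized reads. In the lateral wall it stood at 1118 in macrophages and 1179 in nonmacrophages, a ratio of 0.948 (0.856 to 1.05). Ctsw was lower in macrophages of both substructures, at 23.1 in nerve macrophages and 74.1 in nerve nonmacrophages (0.312, 0.16 to 0.57), and at 59.7 in lateral wall macrophages and 113 in lateral wall nonmacrophages (0.528, 0.349 to 0.788). This order is opposite to that in the whole cochlea, where Ctsw was higher in both young macrophage libraries.

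Prf1 had no reads in either nerve library, and in the lateral wall it had 55.1 normalized reads in macrophages and 61.2 in nonmacrophages. Klrd1 had 34.7 in nerve macrophages and 19.6 in nerve nonmacrophages, and 62.8 in lateral wall macrophages and 79.5 in lateral wall nonmacrophages, and both ratios had intervals that include 1. Cd3e was detected in all 4 libraries, at 77.6 in nerve macrophages and 19.6 in nerve nonmacrophages, and at 27.6 in lateral wall macrophages and 73.4 in lateral wall nonmacrophages. Young GFP-positive libraries of the substructures thus held Cd3e, unlike those of the whole cochlea.

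Gimap5 had no reads in nerve macrophages and 358 normalized reads in nerve nonmacrophages. With 3 reads as the floor it was at least 72.2-fold higher in the nonmacrophages (exact binomial lower limit 58.3). In the lateral wall it had 882 in macrophages and 653 in nonmacrophages (1.35, 1.19 to 1.53). The endothelial list sum was 8425 in nerve macrophages and 49887 in lateral wall macrophages, and its part in the Gimap5 values was not tested. Cd2 had 140.4 in nerve macrophages and 106 in nerve nonmacrophages, and 158 in lateral wall macrophages and 128 in lateral wall nonmacrophages. In the unsorted young cochlea all 9 genes had more than 3 reads, from 32.1 normalized reads for Cd3e to 187 for Gimap5.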

How the data were processed

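The authors deposited 1 table of signal values with, per the file headers, genes in rows and libraries in columns. The values behave as read counts scaled by a constant for each library and are called normalized reads here. The submitters' processing notes name mm10, TopHat2, Partek and DESeq2, and versions are not given in the sources used here. Low values were whole multiples of what 1 read was worth, so reads were recovered. To a tolerance of 0.1 read this gave whole numbers for 100% of values below 10000 reads and for 99.9% of all nonzero values. Libraries held 20.6 to 71.6 M reads. The authors' deposited p-values and fold changes were not used, and 0 columns of per-sample values were left unmapped.

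The 9 genes were read from the table and positioned with GENCODE M21 (mm10). The main test was limma (version 3.58.1, R 4.3.3) with its trend and robust options on log2(value + 1). The fit took in the 14 libraries of sorted cells from whole cochleae, with 4 group means and 1 shared spread. A gene was tested if 2 or more libraries reached a value of 1, as 18441 did, and p-values were adjusted over all of them (Benjamini-Hochberg, 0.05). A fold change on this scale understates the change of low genes. The limma step was tested on simulated data. edgeR's quasi-likelihood test (version 4.0.16) on the recovered reads was an alternative, beside other pseudocounts, no filter, quantile normalization, fits of only the groups compared and leaving out each library. Intervals were exact at 95% and floors were 3 reads.

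The genes, the 15 gene lists and the tests were chosen with earlier results of these data known. Named genes of a list were those called between old and young macrophages, at most 3 in each direction, and defining markers were given by value, except that a few list genes were counted with their lists but are not reported singly here. In the comparisons of sorts, the called genes were named after their values were seen. Libraries of 1 group differed by more than sampling noise in every pair (chi-square of 48.7 to 884 for each degree of freedom), so each was taken as 1 replicate. Near-identical genes, such as granzymes, Klra genes and GIMAP genes, can share reads.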

Additional observations from a re-analysis of the deposited data

Results flagged for a closer look

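Of 27 sets of 4 libraries, which are the 9 genes in each of the 3 groups of 4, 10 held a library far from the other three. Chance alone flags about 1 in 20 such sets where values are normally distributed. The rule was applied to normalized reads without a log, which are skewed, so the 10 of 27 cannot be set against that share. Sets in which the other 3 libraries are all at 0 are flagged by any reads in the fourth. In old macrophages the libraries that stood apart were replicate 17 for Gzma (28.7 normalized reads, the others at 0) and Gzmb (9.75, the others at 0), replicate 1 for Prf1 (0.641, the others at 0) and replicate 12 for Klrd1 (57.1, the others at 5.99 to 11.5). In old nonmacrophages they were replicate 11 for Gzma (11.0, the others at 0) and Klrd1 (12.4, the others at 1.65 to 3.08), and replicate 18 for Prf1 (12.2, the others at 0). In young nonmacrophages they were replicate 6 for Gzma (511, the others at 16.6 to 59.9) and Nkg7 (1026, the others at 85.6 to 196), and replicate 14 for Prf1 (5.88, the others at 0).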

How the results depend on the processing

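No paired analysis was possible because every replicate number belongs to 1 library and the groups share none. Of the 9 genes between old and young nonmacrophages, limma called 0 in the main fit, and calls appeared only without young nonmacrophage replicate 14 (Gzma, Nkg7 and Ctsw) and without young macrophage replicate 9 or 15 (Gzma). The genes called over the whole table were 318 in that comparison, 89 after quantile normalization, 175 in a fit of both groups alone, 3 with edgeR, and 167 to 3562 with 1 library left out. The highest was without young nonmacrophage replicate 14, and 1076 and 1063 came without young macrophage replicate 9 or 15. Of the T cell, NK cell and granule genes, 0 to 7 were called there with 1 library left out. Between old and young macrophages, leaving out 1 library gave 4206 to 8490 genes (5468 with all, 8490 without young replicate 15) and 6 to 15 list genes (11 with all). Between young macrophages and young nonmacrophages the fit of both groups alone gave 1426 genes (5814 in the main fit) and 3 list genes (9 in the main fit), quantile normalization gave 15 list genes, and leaving out 1 library gave 7 to 17, with 17 without young macrophage replicate 9. Between old macrophages and old nonmacrophages the fit of both groups alone gave 10654 genes (3431 in the main fit) and 15 list genes (8 in the main fit), and leaving out 1 library gave 2369 to 5477 genes, 5477 and 5471 of them without young macrophage replicate 9 or 15. Cd28 and Txk turned to -1.33 and -0.038 between old and young macrophages after quantile normalization. Where young macrophage replicate 9 or 15 was left out, the remaining library was assumed to vary like the other groups. The settings for single list genes and lists were chosen after the data were seen. The cause of these shifts was not tested. With 2 young macrophage libraries of low gene number, values of 0 there limit what these data can show about low transcripts.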

Other observations

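Genes with a mean of at least 20 normalized reads were ranked by how like their profile over the 19 libraries was to the mean profile of the 9 genes. Likeness was the overlap of profiles, each library's share of the summed log2(normalized reads + 1), and its median over the 14252 genes ranked was 80.5%. The 8 highest were Hist1h2ao (89.4%), Birc5 (89.0%), Pclaf (88.8%), Ube2c (88.8%), Kif22 (88.6%), Cdk1 (87.9%), Ptprcap (87.8%) and P2ry14 (87.5%). Hist1h2ao belongs to a family of near-identical histone genes and its own value is uncertain. The order depended on the scale, since with linear values P2ry14 ranked 2, Cdk1 58 and the other 6 genes 329 to 8551. Cdk1, the kinase that drives entry into mitosis, had 81.1 to 167 normalized reads in old macrophages, against 1204 and 1215 in young macrophage replicates 9 and 15, and 843 and 1951 in the nerve and lateral wall macrophages. Ptprcap, a lymphocyte gene whose product binds CD45, had 1.28 to 14.0 in old macrophages, against 893 and 58.7 in young replicates 9 and 15. The 9 genes themselves had overlaps of 46.4% (Prf1) to 90.1% (Nkg7). Gzma (77.2%), Gzmb (76.2%), Klrd1 (78.6%), Cd3e (72.6%) and Prf1 lay below the median of the genes ranked, and Nkg7, Cd2, Ctsw and Gimap5 above it. The ranking is therefore of likeness to the mean profile and not to the granzymes.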
